A study of Homo sapiens with 6 samples.

Results

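The region of chromosome 21 that runs from ERG to TMPRSS2 was examined in Hi-C contact maps of LNCaP cells. It was taken as chr21:39000001-43600000 (hg19), which is 115 of the 1204 bins of 40 kb on the chromosome. The 4 genes followed through the maps were ERG and ETS2 at its proximal end and MX1 and TMPRSS2 at its distal end. The cis count of a bin is its number of contacts with its own chromosome. Bins with under 10% of the median cis count in either map were left out, and 114 of these bins and 827 bins of the chromosome remained.

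LNCaP is an established cell line from a prostate cancer metastasis. Cells had received 20 nM of siRNA for 144 h, either a pool without a target (non-targeting; control siRNA, 2 libraries) or a pool against CTCF (CTCF siRNA, 4 libraries). The labels give no genetic change in either group. In Hi-C, cross-linked chromatin is cut, ligated and sequenced, so that each read pair joins a pair of places that lay close together. Of the 4 CTCF siRNA libraries 2 carry the replicate number of another with a suffix, so they need not be separate cultures. The libraries of a condition had been pooled into 1 map, so no difference between the maps could be set against the spread between replicates, no test was possible, and each interval or SD given covers counting error only.

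TADs are stretches of a chromosome whose parts contact each other more often than they contact their surroundings, and CTCF is a DNA-binding protein known for holding many of their edges. TMPRSS2 encodes a transmembrane serine protease that androgen induces in prostate cells, and ERG and ETS2 encode transcription factors of the ETS family. MX1 encodes a GTPase induced by interferon. A rearrangement that joins the start of TMPRSS2 to ERG is common in prostate cancer, and LNCaP is known as a line without it.

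The siRNA pool is shown because it is the only difference in treatment that the labels give. The labels give 4 sequences, written 5′ to 3′ without overhangs:

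CTCF siRNA 1: gaugaagacugaaguaaug

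CTCF siRNA 2: ggagaaagaagaagagua

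CTCF siRNA 3: gaagaugccugccacuuac

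CTCF siRNA 4: gaacagcccauaaacauag

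Each of siRNA 1, 3 and 4 is 19 nt long and was found whole in 11 of the 17 annotated CTCF transcripts. The second, of 18 nt as the labels give it, had no exact match in any of the 17.

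ERG lies at chr21:39751949-40033704 on the minus strand and overlaps 8 bins, and ETS2 lies at chr21:40177107-40196879 on the plus strand in 1 bin. MX1 lies at chr21:42791947-42841998 on the plus strand and TMPRSS2 at chr21:42836227-42903043 on the minus strand. MX1 and TMPRSS2 overlap 3 bins each, share 2 of them, and overlap each other at their 3′ ends, so contacts of these genes could be separated only in part.

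The control map held 24528 contacts within the region and the CTCF siRNA map 148735, of 170817 and 756175 cis contacts on chromosome 21. The median cis count of a usable bin on the chromosome was 356 and 1295. In cis contacts the member genes were covered more deeply than the chromosome, and more so after CTCF siRNA. The cis count per bin of ERG was 1.22 times the chromosome's median in control and 1.98 times in CTCF siRNA, and that of ETS2 was 1.08 and 1.89 times. TMPRSS2 had 1.56 and 3.02 times the median, and MX1 1.57 and 3.17 times. In contacts with other chromosomes, the TMPRSS2 bins had 0.74 to 0.98 times the chromosome's median in control and 0.77 to 1.14 times in CTCF siRNA. The ETS2 bin had 0.70 and 0.84 times. In CTCF siRNA the bins of both genes lay closer to the median in these contacts than in cis contacts. In control the ETS2 bin lay farther from it. Mean GC content was 42.1% over the bins of ERG and 47.6% over those of TMPRSS2. For this reason the expected number of contacts was computed from the distance between bins and from the bias of both bins, a coverage term obtained by iterative balancing of each map. Values with the expectation from distance alone are given beside the main comparisons.

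The first question was how the TADs around these genes were drawn in each condition. In the control list ERG and ETS2 lay together in a TAD of 800 kb, chr21:39740001-40540000, and they were the only protein-coding genes wholly inside it. In the CTCF siRNA list they lay in separate TADs. ERG was alone in a TAD of 320 kb, chr21:39740001-40060000, and ETS2 lay with PSMG1, which encodes a chaperone of proteasome assembly, in a TAD of 560 kb, chr21:40060001-40620000. The lists came from maps of unequal depth, with 24528 contacts in the region in control and 148735 in CTCF siRNA. For any difference between the lists, depth and siRNA cannot be told apart.

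TMPRSS2 lay in the same TAD of 440 kb in both lists, chr21:42820001-43260000, with RIPK4, which encodes a kinase. MX1 was not wholly inside it in either list. The edge at 42820000 fell within MX1 and left its start in the neighbouring TAD, chr21:42460001-42820000, with BACE2, FAM3B and MX2, the last a paralogue of MX1. The TADs of 1000 kb in DSCAM, of 360 kb around MX2 and of 440 kb around TMPRSS2 followed each other with identical edges in both lists, while a control TAD with BRWD1 and its neighbour with PCP4 were for the most part drawn as 1 TAD of 840 kb, chr21:40620001-41460000, in CTCF siRNA.

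The region was touched by 9 control TADs and 10 CTCF siRNA TADs. Their starts and ends within it gave 8 edge positions in control and 10 in CTCF siRNA, of which 6 were identical. Counting starts and ends separately, 12 of 16 control edges (75%) had an edge of the same kind within 40 kb in the CTCF siRNA list, against 48.9% over the genome and 50% on chromosome 21. In the other direction 12 of 18 (66.7%) had one, against 58.6% over the genome.

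**Figure D1:**
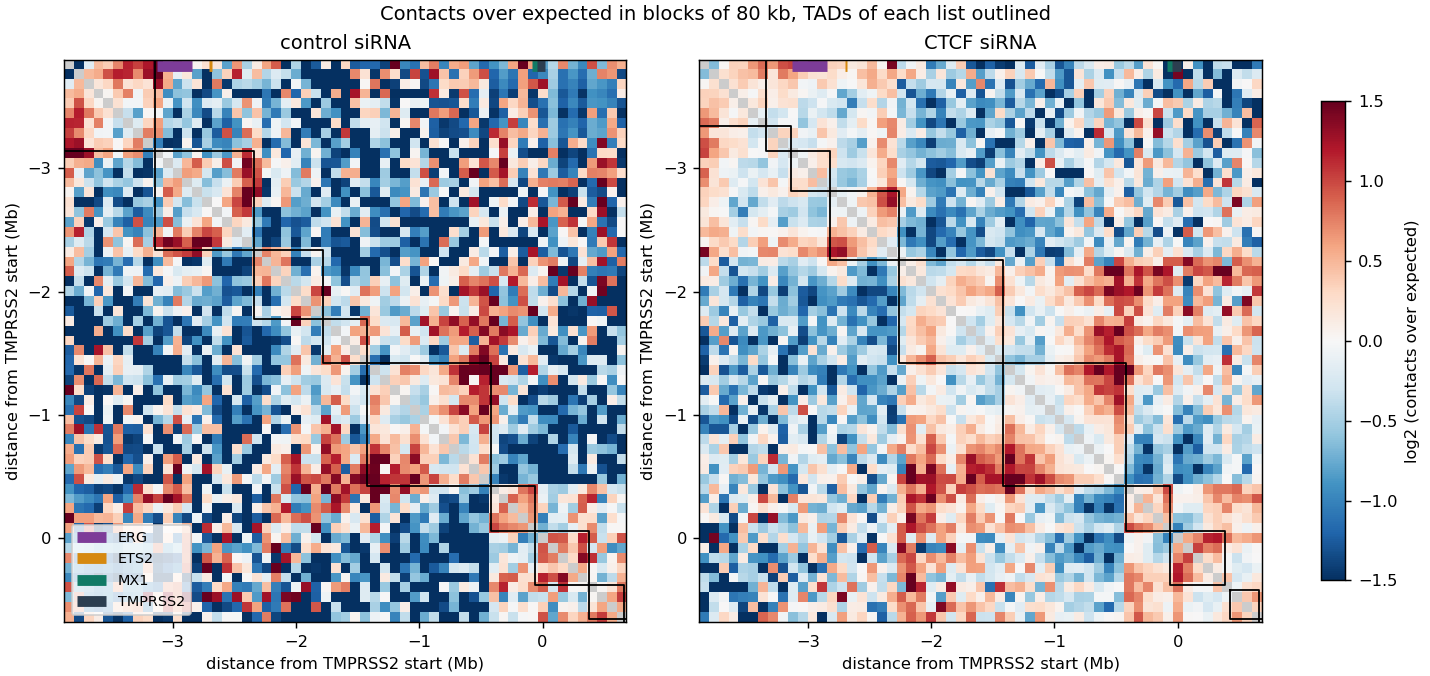
Contacts over expected, as log2, between blocks of 80 kb in the control siRNA and CTCF siRNA maps; both axes give distance from the TMPRSS2 start in Mb, black squares outline the TADs of each list, coloured bars mark the genes and grey blocks have no value. In control 1 square spans ERG and ETS2, and in CTCF siRNA an edge runs between them, while the square at TMPRSS2 is the same.

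Contacts across these edges were then measured with the insulation value, which divides observed over expected contacts across a bin by the same quotient within its flanks of 400 kb, as log2. A lower value means fewer contacts across the bin. The expectation here came from distance alone, and adding the bin bias left the number of edges called as it was. In CTCF siRNA the value was higher by at least 0.5 at 4 of the 12 edge positions, all 4 of them edges of the control list, and lower by 0.5 at 0. Each list was called from its own map, so a difference at an edge is not independent of the calls. The share over all TAD edges was not computed, so the count is not read as a result about edges. Over the whole region 16 of 115 bins, or 13.9%, were higher by at least 0.5, which lies close to the 12.8% of autosomal bins and the 10.5% of chromosome 21 bins. The 115 include the left-out bin, whose value comes from its flanks alone. The share of bins lower by at least 0.5 was 0 of 115, against 3.82% of autosomal bins.

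The edges of the control TAD of ERG and ETS2 were among the 4. At 39740000, just beyond the 3′ end of ERG, control had -0.90 ± 0.10 (counting SD) and CTCF siRNA had -0.19 ± 0.03. The difference was 0.71 ± 0.10, although both lists kept the edge. At the other end, 40540000, in a bin that PSMG1 and BRWD1 overlap, control had -1.62 ± 0.12 and CTCF siRNA -1.02 ± 0.04. That was the lowest value of the region in control. In CTCF siRNA the lowest value, -1.27 ± 0.04, lay in the bin of the new edge at 40620000 inside BRWD1, where control had -1.06 ± 0.10. The difference of 0.60 ± 0.12 at 40540000 depended on the flank and was 0.26 with flanks of 800 kb and 1.0 with flanks of 200 kb. At 40620000 it was -0.22 ± 0.11, and -0.72 with flanks of 200 kb.

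Between ERG and ETS2 the new edge at 40060000 lay in a bin with no protein-coding gene. Control had -0.06 ± 0.07 there and CTCF siRNA -0.31 ± 0.03, a difference of -0.25 ± 0.08. In CTCF siRNA this edge was about as deep as the edge at 42820000, with -0.28 ± 0.03. With flanks of 800 kb the difference was -0.07.

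On the side of TMPRSS2 the deepest edge was at 42460000, between DSCAM and BACE2, with -1.43 ± 0.10 in control and -0.87 ± 0.04 in CTCF siRNA, a difference of 0.56 ± 0.11. The edge in MX1 at 42820000 was weaker in both maps, at -0.54 ± 0.08 and -0.28 ± 0.03. Its difference of 0.26 ± 0.08 was 0.51 with flanks of 800 kb and 0.09 with flanks of 200 kb. The far edge of the TMPRSS2 TAD at 43260000, in PRDM15, had -0.49 ± 0.07 and -0.45 ± 0.03, and the difference of 0.04 ± 0.08 was within counting error, but was 0.35 with flanks of 200 kb.

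Between the gene pairs, the control edge at 41100000, in a bin that IGSF5 overlaps, which no longer appeared in the CTCF siRNA list, had -0.40 ± 0.08 in control and 0.34 ± 0.03 in CTCF siRNA, a difference of 0.74 ± 0.09 that was not separated from the 0.71 ± 0.10 at 39740000. The edge at 41460000 in DSCAM, present in both lists, had -0.20 ± 0.08 and -0.09 ± 0.03, a difference of 0.12 ± 0.09 that was 0.49 with flanks of 200 kb. Over all bins with at least 50 contacts expected across, the highest difference was 0.89 ± 0.12 at chr21:39000001-39040000 and the lowest -0.38 ± 0.08 at chr21:39360001-39400000, both inside KCNJ6, which encodes a potassium channel.

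**Figure D2:**
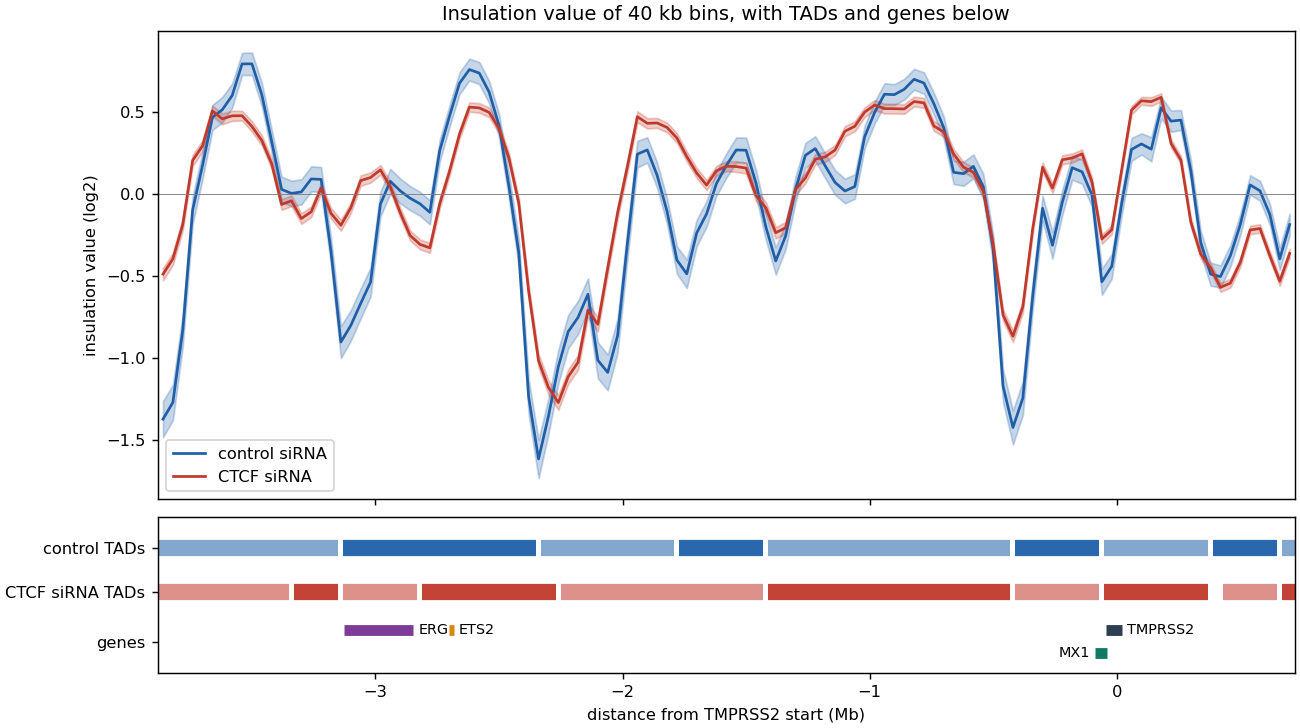
Insulation value (log2) of each 40 kb bin against distance from the TMPRSS2 start in Mb, with shading of 1 counting SD; bars below give the TADs of both lists and the genes. The minima on both sides of ERG and ETS2 and the minimum between DSCAM and BACE2 are shallower in CTCF siRNA, and the curves lie close together at the far edge of the TMPRSS2 TAD.

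The reference sequence of the edge bins was searched on both strands for the core consensus of the CTCF motif, a pattern of 12 letters. Of the 12 edge bins 4 held a match, as did 17 of the 115 bins of the region (14.8%) and 13.5% of the usable bins of chromosome 21. The matches are shown because they are the only ones at edges, read 5′ to 3′ on the strand named, with the core in capitals and 9 bases on each side. Both of the first 2 lie in the bin of the edge at 39540000, which the CTCF siRNA list alone has, and the others lie at 42460000, 43260000 and 43540000:

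chr21:39531546-39531575, plus strand: tcctctcggCCACTAGGGGGCactaactac

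chr21:39542985-39543014, minus strand: tctgtgtttCCACTAGATGGCatatcagtt

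chr21:42441143-42441172, minus strand: tcctcaatgCCAGCAGAGGGCgcgagcgga

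chr21:43279141-43279170, plus strand: tgccctgggCCACCAGGTGGCacagcctcc

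chr21:43537714-43537743, minus strand: cacgacaggCCACTAGGTGGCaatgtcaaa

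No match lay in the bins of the edges at 39740000, 40060000, 40540000 or 42820000, which flank ERG, ETS2 and the near side of TMPRSS2, whereas the far edge of the TMPRSS2 TAD at 43260000 held 1. A shorter form, CCAGGGGGC, was found in 34 bins of the region (29.6%, against 24.4% of usable bins of the chromosome) and in 5 edge bins. A match describes the letters of the reference and not binding.

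The contacts between ERG and TMPRSS2, at a mean distance of 2.98 Mb over 24 pairs of bins, were close to expectation in both maps. Control held 5 contacts where 5.62 were expected, or 0.89 times (exact Poisson 95% interval 0.29 to 2.08). CTCF siRNA held 30 where 31.5 were expected, or 0.95 times (0.64 to 1.36). Dividing the CTCF siRNA value by the control value gave a ratio of 1.07 with an exact 95% interval of 0.41 to 3.53, so a change within these limits was not detectable at this depth.

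Windows of the same shape and distance elsewhere gave similar values. Of 40008 such windows on the autosomes, 53.9% lay below the value of ERG and TMPRSS2 in control and 51.7% in CTCF siRNA. On chromosome 21 54.9% and 49.3% of 592 windows did. In CTCF siRNA the central 90% of the autosomal windows ran from 0.373 to 2.05. A ratio between the maps of at least 1.5 in either direction was seen in 54.1% of the autosomal windows, and with distance and bias ERG with TMPRSS2 was not among them.

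With the expectation from distance alone, the contacts between ERG and TMPRSS2 were 1.34 times expected in control (0.44 to 3.14) and 2.13 times in CTCF siRNA (1.44 to 3.04). The ratio was then 1.59 (0.61 to 5.24), past 1.5 but with an interval that included 1. The cis count per bin of both genes lay above the chromosome's median, as given above, but cis counts include these contacts. Why the expectations differ was not tested. Wider windows of 400 kb at both genes held 15 contacts in control, 0.78 times expected (0.44 to 1.29), and 101 in CTCF siRNA, 0.93 times (0.76 to 1.13). Their ratio was 1.19 (0.69 to 2.20).

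Contacts between the bins of neighbouring genes were fewer than expected from distance and bias, but in control the interval of TMPRSS2 with MX1 included expectation. ERG and ETS2, at a mean of 0.3 Mb, had 33 contacts in control, 0.65 times expected (0.45 to 0.91), and 212 in CTCF siRNA, 0.64 times (0.56 to 0.74). The ratio was 0.99 (0.68 to 1.47). The CTCF siRNA TADs of ERG and of ETS2, which meet at the new edge, shared 533 contacts in control, 1.16 times expected (1.07 to 1.27), and 2549 in CTCF siRNA, 0.85 times (0.82 to 0.88). Their ratio was 0.73 (0.66 to 0.80), and 1.02 (0.93 to 1.1) with distance alone, so the lower value between these whole TADs depended on the bin bias. The insulation value of the edge itself, given above, was lower in CTCF siRNA by either expectation. The edge was called in the CTCF siRNA map itself, so neither value is separate evidence for it. TMPRSS2 and MX1 could be compared in 1 pair of unshared bins 0.12 Mb apart, with 9 contacts (0.54 times, 0.25 to 1.03) and 65 contacts (0.50 times, 0.39 to 0.64). With distance alone ERG with ETS2 had 0.77 (0.53 to 1.08) and 1.08 times expected (0.94 to 1.23), and TMPRSS2 with MX1 had 0.85 (0.39 to 1.62) and 1.41 times (1.09 to 1.8).

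The other 3 of the 6 pairs joined the genes across the region. ERG and MX1 had 7 and 36 contacts, 1.26 (0.51 to 2.6) and 1.07 times expected (0.75 to 1.49), and these share bins with ERG and TMPRSS2. With distance alone they were 1.89 (0.76 to 3.89) and 2.51 times expected (1.76 to 3.48), the latter above expectation. ETS2 had 1 and 3 contacts with TMPRSS2 and 2 and 8 with MX1, few counts whose intervals included expectation. With distance alone ETS2 with MX1 was 3.44 times expected in CTCF siRNA (1.49 to 6.79), above expectation. With these bins none of the 6 pairs had a ratio whose interval left out 1. The ratio of TMPRSS2 with MX1 was 2.35 with the bins of each gene widened by 1 on each side, and that of ERG with ETS2 was 0.62 with the start bins alone, where its control value was 1.19 times expected.

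**Figure D3:**
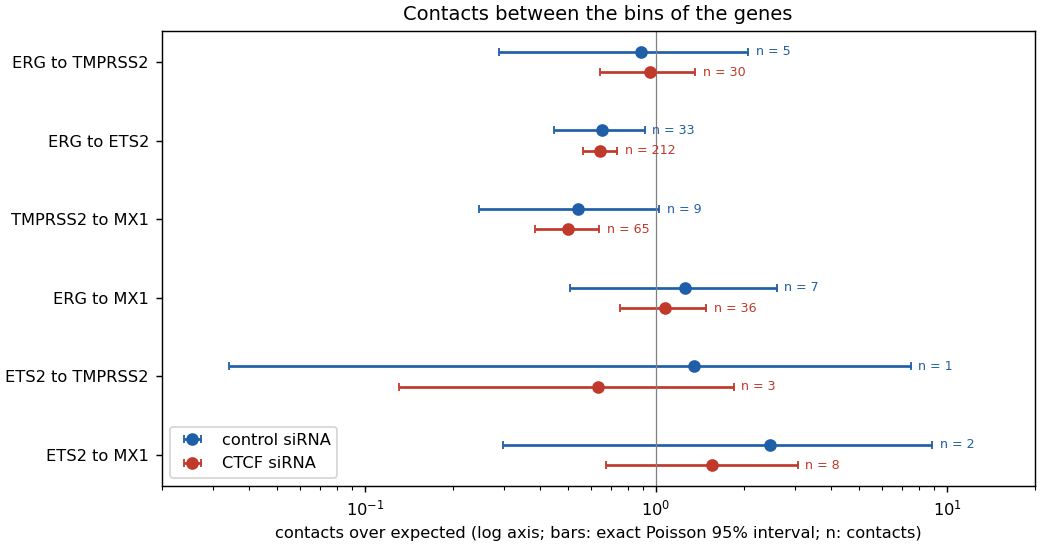
Contacts over expected (log axis) between the bins of each pair of genes in control siRNA and CTCF siRNA; bars are exact Poisson 95% intervals and n is the number of contacts. ERG with TMPRSS2 lies at 0.89 and 0.95, ERG with ETS2 at 0.65 and 0.64, and the intervals of the maps overlap for every pair.

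Each gene was then followed along the region in windows of 200 kb. Windows that overlap ERG, which include that of ETS2, were not profiled. With the nearest windows profiled, chr21:39400001-39600000 and chr21:40200001-40400000, ERG had 191 and 188 contacts in control, 1.0 and 0.92 times expected. Its contacts over expected were higher with the farther windows named next. With the window at chr21:40400001-40600000, at the distal edge of its control TAD, it had 168 contacts in control, 1.89 times expected (1.62 to 2.20), and 746 in CTCF siRNA, 1.26 times (1.17 to 1.35). With chr21:39000001-39200000 in KCNJ6 it had 133 contacts, 1.96 times expected (1.64 to 2.32), and 658, 1.39 times (1.29 to 1.5). Both were lower in CTCF siRNA, with ratios of 0.67 (0.56 to 0.79) and 0.71 (0.59 to 0.86). With distance alone the ratios were 0.89 (0.76 to 1.06) and 1.01 (0.84 to 1.23), and the intervals then included 1. At long range ERG had 20 contacts with chr21:42400001-42600000, around the start of BACE2, in control, 2.0 times expected (1.22 to 3.09), and 55 in CTCF siRNA, 0.96 times (0.72 to 1.25). Its ratio was 0.48 (0.28 to 0.85), and 0.71 (0.42 to 1.25) with distance alone. Going the other way, chr21:41400001-41600000 had 6 contacts with ERG in control, 0.30 times expected (0.11 to 0.65), and 83 in CTCF siRNA, 0.65 times (0.51 to 0.80). That ratio was 2.16 (0.95 to 6.07), and 3.02 (1.33 to 8.45) with distance alone. The ratios at chr21:41600001-41800000 and chr21:42000001-42200000 were 1.59 and 1.76, with intervals that included 1.

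Among listed genes over 400 kb away with at least 20 contacts in both maps, ERG had its highest value with PSMG1. The window at the PSMG1 start held 147 contacts in control, 1.89 times expected (1.59 to 2.22), and 593 in CTCF siRNA, 1.28 times (1.18 to 1.39). The ratio was 0.68 (0.57 to 0.82), and 0.81 (0.68 to 0.98) with distance alone, so in this window the value was lower in CTCF siRNA by either expectation. Most of the window is shared with chr21:40400001-40600000 above, so these are largely the same contacts. There the ratio with distance alone was 0.89, with an interval (0.76 to 1.06) that included 1. BRWD1, which encodes a bromodomain protein, followed with 0.79 and 0.78 times, and HMGN1, which encodes a nucleosome-binding protein, with 0.89 and 0.70 times.

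For TMPRSS2, all listed genes over 400 kb away with at least 20 contacts in both maps lay towards the telomere. The rule thus fixed the side of the 3 highest values, which follow. The window at the start of PRDM15, which encodes a zinc-finger protein, held 108 contacts in control, 1.63 times expected (1.34 to 1.97), and 776 in CTCF siRNA, 1.60 times (1.49 to 1.71). UMODL1 followed with 1.27 and 1.19 times and ZBTB21, a further zinc-finger gene, with 1.09 and 1.32 times. The window of ZBTB21 shares bins with those of PRDM15 and UMODL1. The ratios were 0.98 for PRDM15, 0.93 for UMODL1 and 1.21 for ZBTB21, and each interval included 1. With distance alone they were 1.48 (1.21 to 1.83), 1.56 (1.22 to 2.02) and 2.11 (1.62 to 2.79), all above 1. By that expectation the median ratio between control TADs was also above 1, at 1.69 in the region and 1.22 over the autosomes. On the side of ERG, where control contacts were too few for that rule, the window at the BRWD1 start held 5 contacts in control, 1.05 times expected (0.34 to 2.46), and 42 in CTCF siRNA, 1.65 times (1.19 to 2.23), with a ratio of 1.57 (0.62 to 5.07).

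Towards ERG, TMPRSS2 met the windows of the TAD in DSCAM, a gene for a cell adhesion molecule of neurons, and 3 windows just before the distal edge of that TAD had intervals below expectation in control. In control it had 9 contacts with chr21:41800001-42000000, 10 with the next window and 21 with chr21:42200001-42400000, which were 0.36 (0.17 to 0.69), 0.29 (0.14 to 0.53) and 0.40 times expected (0.25 to 0.61). In CTCF siRNA the same windows had 124, 165 and 237 contacts, or 0.77 (0.64 to 0.92), 0.70 (0.60 to 0.82) and 0.63 times (0.55 to 0.72). All 3 were below expectation in both maps and less so in CTCF siRNA, with ratios from 1.57 to 2.44 whose intervals lay above 1. With distance alone they were 0.55, 0.42 and 0.58 times expected in control and 1.55, 1.42 and 1.3 times in CTCF siRNA, above expectation, with ratios from 2.25 to 3.40. The windows farther into DSCAM had ratio intervals that included 1. At chr21:41600001-41800000 the values were 0.56 and 1.01 with a ratio of 1.81 (0.95 to 3.89), and at chr21:41400001-41600000 they were 1.09 and 1.3 with a ratio of 1.19 (0.68 to 2.24). With distance alone these ratios were 2.32 and 1.83, with intervals above 1.

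**Figure D4:**
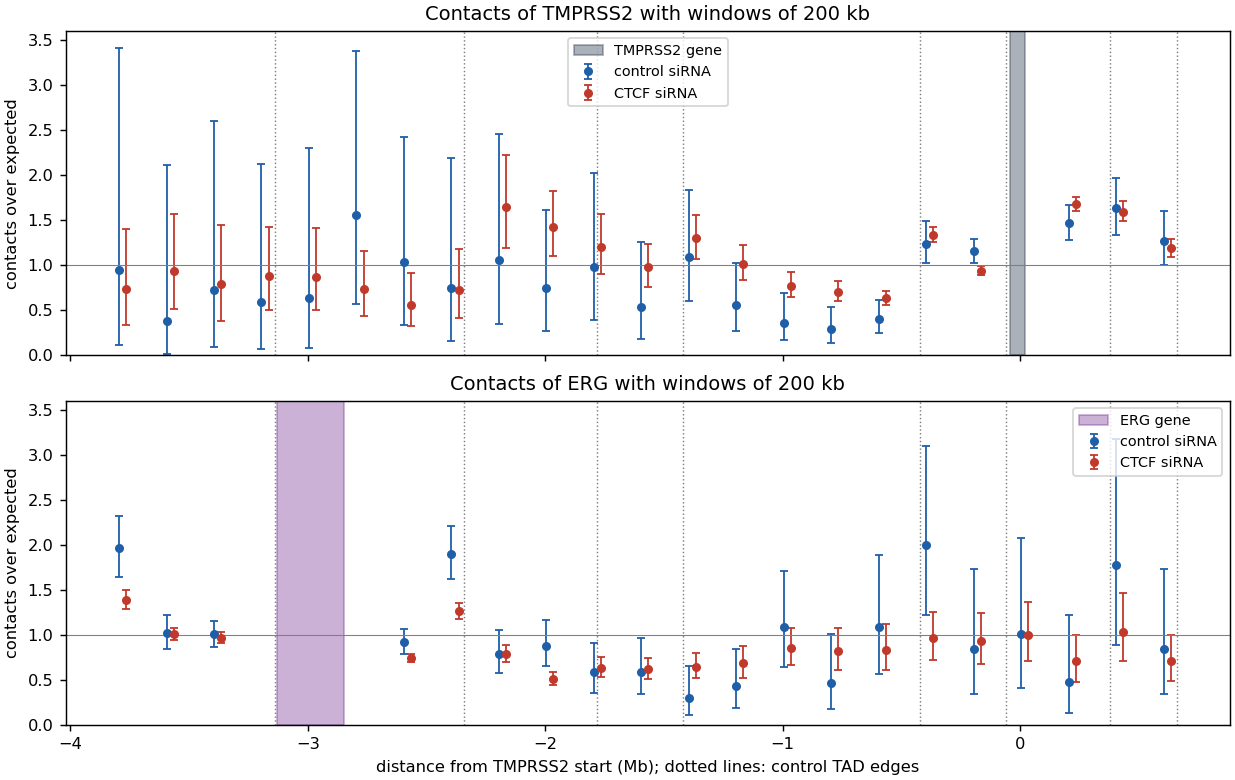
Contacts over expected of TMPRSS2 (upper panel) and ERG (lower panel) with windows of 200 kb, against distance from the TMPRSS2 start in Mb; bars are exact Poisson 95% intervals, shading marks the gene and dotted lines mark control TAD edges. TMPRSS2 shows a trough of 0.29 to 0.40 in control over the 3 windows just before the distal edge of the TAD in DSCAM that is 0.63 to 0.77 in CTCF siRNA, and the peak of ERG at the distal edge of its TAD is 1.89 in control and 1.26 in CTCF siRNA.

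Whole TADs, taken from the control list in both maps, gave ratios in the same direction. The TAD in DSCAM holds the windows just given and the TAD of TMPRSS2 holds bins of that gene. Their contacts are thus in part the same and are not separate evidence. The TAD in DSCAM and the TAD of TMPRSS2 and RIPK4 shared 103 contacts in control, 0.33 times expected (0.27 to 0.40), and 1355 in CTCF siRNA, 0.65 times (0.62 to 0.68). The ratio was 1.96 (1.61 to 2.42), and 2.74 with distance alone. The TAD with PCP4, which encodes a regulator of calmodulin, and that of TMPRSS2 shared 16 and 229 contacts, 0.45 (0.26 to 0.73) and 0.96 times expected (0.84 to 1.1), with a ratio of 2.15 (1.30 to 3.83), and 3.33 with distance alone. This was not particular to TMPRSS2, as TADs beyond it showed the same. The TAD in DSCAM and the TAD of C2CD2 had 0.46 and 0.89 times expected, a ratio of 1.94 (1.45 to 2.65). The TAD in DSCAM and that of ABCG1 had 0.36 and 0.63 times, a ratio of 1.74 (1.37 to 2.25). For the TADs of PCP4 and ABCG1 the ratio was 1.78 (1.06 to 3.18). The contacts of the TMPRSS2 TAD with its nearer neighbour, the TAD of BACE2 and MX2, were 0.95 and 0.98 times expected, a ratio of 1.03 (0.93 to 1.15). With distance alone that ratio was 1.71. The bins of TMPRSS2 had 1.15 and 0.94 times expected with chr21:42600001-42800000, inside that neighbour. This ratio was 0.82 (0.72 to 0.93), and 1.33 (1.17 to 1.51) with distance alone.

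In the other direction, the TMPRSS2 TAD and the TAD with ABCG1, which encodes a lipid transporter, shared 333 contacts, 0.92 times expected (0.82 to 1.03), and 1741 contacts, 0.63 times (0.60 to 0.66). The ratio of 0.68 (0.60 to 0.77) was the lowest in the region, and with distance alone it was 1.07 (0.95 to 1.21).

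The TAD of ERG and ETS2 had more contacts over expected with the TADs on both of its sides in CTCF siRNA. With the TAD of KCNJ6 and KCNJ15 it shared 683 and 5824 contacts, 0.74 (0.68 to 0.80) and 0.98 times expected (0.95 to 1.0), a ratio of 1.33 (1.22 to 1.44). With the TAD of BRWD1 it shared 348 and 2432 contacts, 0.57 (0.51 to 0.64) and 0.65 times (0.63 to 0.68), a ratio of 1.14 (1.02 to 1.28). The edges towards both neighbours were those with the higher insulation values given above. The median ratio of neighbouring control TADs on the autosomes was 1.23, which lies between these ratios. A ratio above 1 is thus not particular to this TAD. With distance alone the ratios were 1.80 and 1.46.

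The TAD of ERG and ETS2 and the TAD of TMPRSS2 shared 34 contacts in control where 37.7 were expected, or 0.90 times (0.63 to 1.26), and 190 in CTCF siRNA where 222 were expected, or 0.85 times (0.74 to 0.99). The ratio was 0.95 (0.65 to 1.41). With distance alone the values were 1.20 and 1.76, and the ratio was 1.46 (1.01 to 2.18).

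Among the 34 pairs of control TADs of the region with at least 20 control contacts expected, the ratio was at least 1.5 for 8 pairs, and at most 1/1.5 for 0. Over the autosomes 17.6% of 10098 pairs had a ratio of at least 1.5 and 2.18% one of at most 1/1.5. The median ratio was 1.18 in the region and 1.15 over the autosomes. With distance alone 23 of the 34 pairs had a ratio of at least 1.5, against 31.1% of the autosomal pairs. The median ratio was then 1.69 in the region and 1.22 over the autosomes. Of the 8 pairs of neighbouring TADs 1, BRWD1 with PCP4, had a ratio of at least 1.5, against 22.1% of such pairs on the autosomes, and 6 had a ratio above 1. The median of such pairs on the autosomes was 1.23. With distance alone 6 of the 8 had a ratio of at least 1.5 and all 8 one above 1. The share of neighbouring autosomal pairs by distance alone was not computed. These counts are therefore not comparable with the 22.1% and are not read as a result.

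Within TADs the direction depended on the expectation. Contacts within the TAD of ERG and ETS2 were 1.21 times expected in control (1.16 to 1.26) and 1.06 times in CTCF siRNA (1.04 to 1.08), and those within the TAD of TMPRSS2 were 1.51 (1.42 to 1.60) and 1.37 times (1.34 to 1.40). The value was lower in CTCF siRNA in all 9 TADs, with ratios from 0.81 to 0.96. With distance alone it was higher in all 9, with ratios from 1.03 to 1.60, so no direction of contacts within TADs is given.

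**Figure D5:**
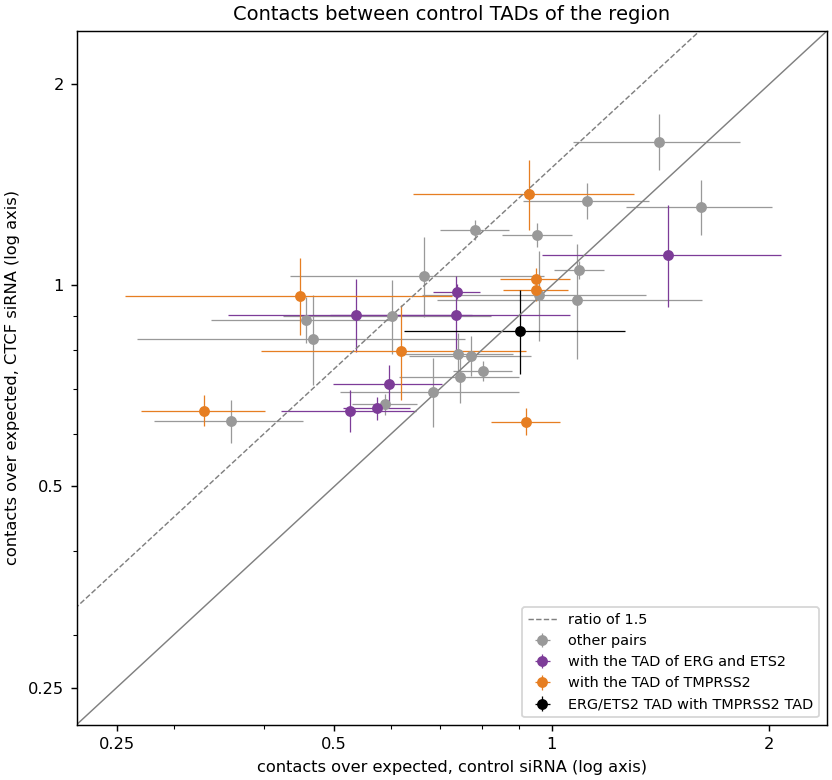
Contacts over expected between control TADs of the region in control siRNA (horizontal) and CTCF siRNA (vertical), both on log axes, for the 34 pairs with at least 20 control contacts expected; bars are exact Poisson 95% intervals, the solid line marks equal values and the dashed line a ratio of 1.5. The pair of the ERG and ETS2 TAD with the TMPRSS2 TAD lies at 0.90 and 0.85, near the line, and the TMPRSS2 TAD with the TAD in DSCAM at 0.33 and 0.65, above the dashed line.

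A loss of the DNA between ERG and TMPRSS2, as can accompany their rearrangement, would lower the coverage of the interval, so coverage was read from contacts with other chromosomes. The 68 bins between the genes had a median of 450 such contacts in control and the 34 flanking bins of the region 394, a ratio of 1.14. In CTCF siRNA the medians were 1159 and 1120, a ratio of 1.03. With contacts within the chromosome the ratios were 1.0 and 0.906. No step down in contacts with other chromosomes was seen between the genes in either map. GC content was 42.8% in the interval and 45.7% in the flanks, and its part in these values was not tested.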

How the data were processed

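Hi-C libraries of LNCaP cells (2 with control siRNA, 4 with CTCF siRNA) were grouped by labelled siRNA. Per the methods, the authors cut with BglII, mapped to hg19, pooled the libraries of a condition and called TADs from a directionality index. The submitters' processing notes name FastQC 0.11.2, Bowtie 1.1.0, SAMtools 1.2 and Picard 1.121.

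The deposited contact values were taken for counts when the comparisons were chosen, but hold read-pair counts multiplied by a factor for each bin. Counts were recovered by division. Of 3195 control and 5562 CTCF siRNA values checked in the region 100% came out whole within 0.05% of the value plus a small rounding margin. The maps held 26174660 and 87657909 read pairs, of which 52.2% and 64.2% were cis.

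Expected counts came from chromosome 21 at the same distance, times the balancing bias of both bins (60 rounds). For insulation they came from distance alone, and 50% of bin pairs had to be usable. Intervals are exact Poisson, or conditional binomial for ratios, at 95%, and PCR duplicates are not independent molecules. Called meant a ratio of 1.5 or an insulation difference of 0.5. Named genes were the members, genes at TAD edges, and the 3 listed genes per member (over 400 kb away, at least 20 contacts in both maps) with the highest lower value of contacts over expected. Other genes label TADs or bins. Genes came from GENCODE on GRCh37. Members and lists were chosen with earlier results of these data known. Scripts used Python 3.11.15, numpy 2.4.6 and scipy 1.17.1 and were tested on simulated data. The alternatives were the expectation, the decay of all autosomes, the deposited values, the bins of a gene, the usable-bin minimum, the flank and the edge tolerance.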

Additional observations from a re-analysis of the deposited data

How the results depend on the processing

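Of 261 alternatives computed for 110 results, 5 reversed a direction, 56 moved the value beyond its counting interval (a count by over 1.5 times) and 200 did not. In the 5 the intervals lay on opposite sides of 1. Other values crossed 1 too but are counted among the rest. With distance alone the ratio of the TMPRSS2 and ABCG1 TADs went from 0.68 to 1.07, and that of TMPRSS2 with UMODL1 from 0.93 to 1.56. For windows and pairs of TADs other than those of ERG and TMPRSS2 only the ratios were counted. Distance alone for partner genes, windows and pairs of TADs other than those of ERG and TMPRSS2, and windows of 400 kb, were chosen after seeing the data. The 5 reversals came from distance alone: in CTCF siRNA, TMPRSS2 to MX1 was 1.41 times expected in place of 0.50, and the TADs of ERG and TMPRSS2 were 1.76 times expected in place of 0.85, while CTCF siRNA over control was 1.26 within the TAD of ERG and ETS2, 1.46 within that of TMPRSS2, and 1.33 for TMPRSS2 with chr21:42600001-42800000, where distance with bias gave 0.88, 0.91 and 0.82. With distance alone, ERG to TMPRSS2 was 2.13 times expected in CTCF siRNA, the ratio of their TADs was 1.46, 23 pairs of TADs, 6 of them neighbours, had a ratio of at least 1.5, and 0 of 9 TADs had fewer contacts within them. With the bin of each gene's start alone, ERG to TMPRSS2 had 0 contacts in control and 0 in CTCF siRNA. Coverage of the interval over its flanks was 1.0 in control and 0.906 in CTCF siRNA by contacts within the chromosome, and the shorter motif was in 34 bins. The number of edges higher by at least 0.5 was 3 with the values as deposited, where 40540000 had 0.49, and 4 otherwise. The 4 were not always the same: with flanks of 800 kb 42820000 (0.51) took the place of 40540000 (0.26). With flanks of 200 kb the edge at 40620000 was lower by over 0.5 (-0.72). The causes were not tested. No paired analysis was possible because the authors pooled the libraries of each condition into 1 map, and leaving out a library was not possible either. The few control contacts at long distances limit what ERG to TMPRSS2 can show.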
